A study of Mus musculus with 7 samples.

Results

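The dorsoventral and nasotemporal patterning genes are the 9 transcription factors and enzymes *Tbx2*, *Tbx3*, *Tbx5*, *Vax2*, *Aldh1a1*, *Aldh1a3*, *Foxd1*, *Nr2f1* and *Nr2f2*, found by gene symbol among the 48440 genes of the count table. All 9 occurred once and passed the expression filter that left 20019 genes for testing. They were measured by bulk RNA-seq in 7 libraries of whole mouse retina at embryonic day 16 (E16), each a pool of retinas of a single genotype. Every mouse carried the *Chx10-Cre* transgene, which expresses a Cre-GFP fusion in retinal progenitors. The WT library (Chx10Cre, 6 retinas) had no floxed allele, the Het libraries (Chx10-Cre;Ptbp1lox/WT) held 5, 5 and 6 retinas with 1 floxed *Ptbp1* allele, and the KO libraries (Chx10-Cre;Ptbp1lox/lox) held 4, 4 and 6 retinas with both alleles floxed. The floxed segment spans the promoter and the first exon of *Ptbp1*, an RNA-binding splicing repressor, and is lost only in cells that express Cre and their progeny. Because each pool is a mix of animals, the spread between libraries is a spread between pools.

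In the developing eye, BMP4 from the dorsal retina induces the T-box factors TBX5, TBX2 and TBX3, while VAX2 marks the ventral retina. Retinoic acid is made from retinaldehyde by ALDH1A1 in the dorsal and ALDH1A3 in the ventral retina, with a band of CYP26 degrading enzymes between them. FOXD1 marks the temporal side, and these regional factors set the graded Eph receptors and ephrins that ganglion cell axons use to map onto the brain. The nuclear receptors NR2F1 and NR2F2 (COUP-TFI and COUP-TFII) are enriched ventrally and dorsally, respectively, in the optic cup. A pool that held more of one retinal region would thus be read in the opposed members, so the genes were compared between genotypes and between pools.

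*Ptbp1* itself was at 381 CPM (counts scaled to a library size of 1000000 after TMM normalization) in WT, at 210, 219 and 234 CPM in Het1 to Het3, and at 27.9, 6.04 and 46.9 CPM in KO1 to KO3. Counts on genes summed to 120593979 to 171117305 per library. The limits of the study were kept for calling a gene between KO and Het: a Benjamini-Hochberg adjusted p below 0.05, here from edgeR's quasi-likelihood test, and a log2 fold change beyond 0.26 in either direction. The 6 listed genes of retinal progenitor identity (*Rax*, *Pax6*, *Six3*, *Six6*, *Lhx2* and *Sox2*) were present in every library, and their sum was 1968 CPM in WT, 1885 to 1960 CPM in Het and 1835 to 1850 CPM in KO, the KO sums lying wholly below Het. Between KO and Het 0 of the 6 were called by edgeR or DESeq2, against 7.22% and 11.9% of all genes, shares that 6 genes are too few to tell from 0. At an unadjusted p below 0.05 there were 2, against 29.7% of all genes. *Six6*, singled out after its values were seen, was below Het in every KO library, at a log2 fold change of -0.20 (adjusted p = 0.0258, edgeR; 6.1e-05, DESeq2), which is inside the fold-change limit. The summed levels of other tissues were uneven. Het1 stood apart, with 290 CPM of 12 skeletal muscle genes against at most 12.1 CPM in any other library, 462 against at most 60.9 CPM of 11 periocular mesenchyme genes, and 547 against at most 68.6 CPM of 9 pigment genes. KO1 and KO2 stood apart as well. Their sums of 3 ciliary margin markers were 3.99 and 5.43 CPM, whereas KO3 was at 45.2 CPM, the Het libraries at 23.7 to 53.5 CPM and WT at 40.1 CPM. All 3 markers were lower in KO1 and KO2 than in any of the other 5 libraries, against 12.2% of all genes tested. So were 7 of 8 vessel, 6 of 9 pigment, 5 of 11 lens, 2 of 11 mesenchyme and 0 of 12 muscle genes. By edgeR 1 of the 8 vessel genes and 3 of the 10 lens genes tested were called lower in KO, against 3.21% of all genes. The lens gene *Lim2* was at 0 in every library, and the lens factor *Foxe3* was at 0 in KO1 and KO2.

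None of the 9 patterning genes met both limits between KO and Het, and 7.22% of all genes tested did. A list of 9 genes is too short to tell 0 from a share of this size. At an unadjusted p below 0.05 there were 3 of the 9 (*Tbx2*, *Aldh1a3* and *Nr2f1*), against 29.7% of all genes, and DESeq2 with the same limits called 0 of the 9, against 11.9%. These 3 were also the members whose KO libraries lay wholly to one side of Het, which was so for 36.3% of all genes. Fold changes were below 0 on the log2 scale in 6 and above 0 in 3 members, with a median of -0.078, and the median over all genes tested was -0.0047. Without Het1 *Nr2f1* was called, and without KO3 *Aldh1a1* was called, so the count of 0 became 1 in each of these fits, and it was 0 without both KO1 and KO2. Since RNA was taken from whole retina, fewer cells of a type cannot be told apart from less RNA per cell.

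**Figure D1:**
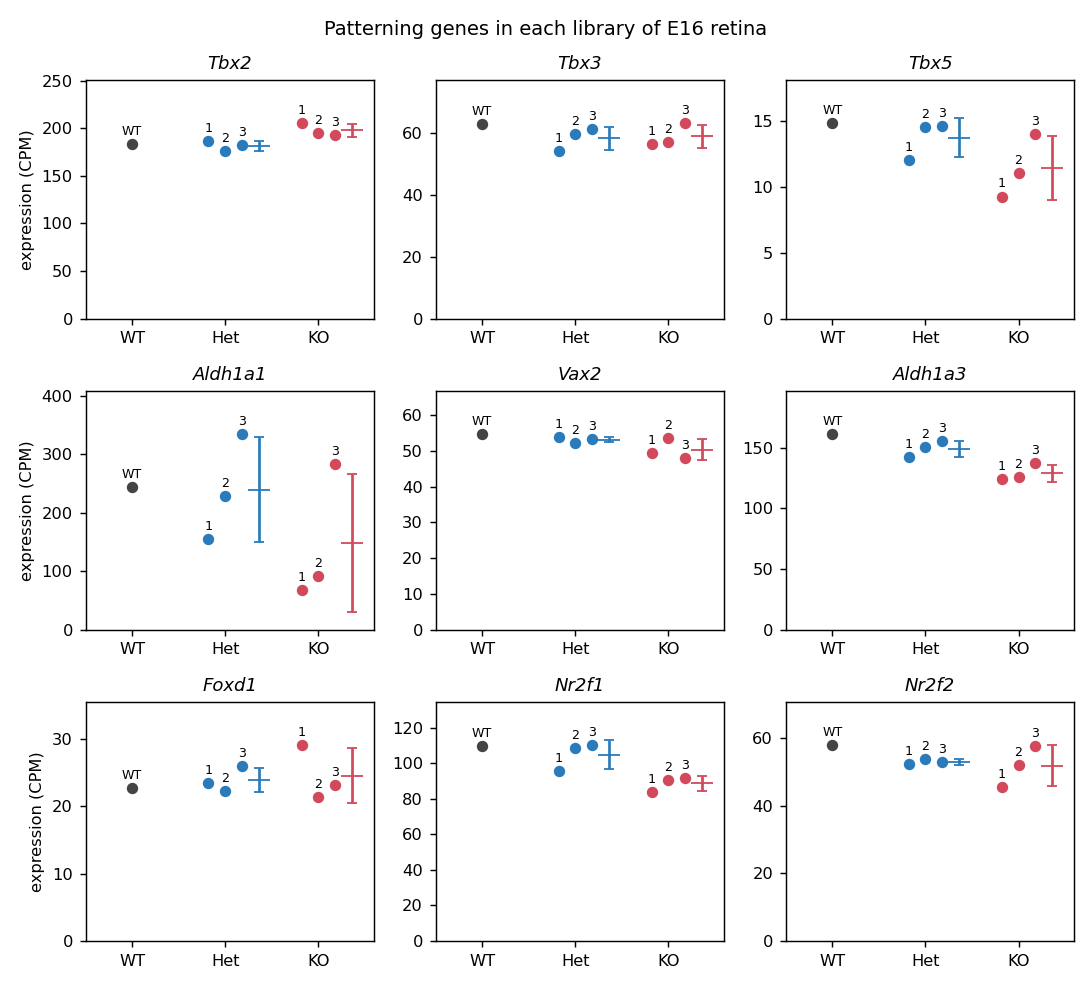
Expression (CPM, y axis starting at 0) of the 9 patterning genes in each library, grouped by genotype (x axis), with points numbered by library and the mean and SD of the 3 Het and the 3 KO libraries beside them. *Aldh1a1* runs from 68.8 to 335 CPM, while KO lies wholly below Het in *Aldh1a3* and *Nr2f1* and wholly above it in *Tbx2*.

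To compare levels between genes, CPM were divided by the length of the gene's exons in kilobases, taken from a GENCODE annotation of GRCm38. On this per-length scale *Tbx2* was the most abundant member (mean over the 7 libraries 52.1 CPM per kb), followed by *Vax2* (42.0), *Aldh1a1* (40.7), *Aldh1a3* (30.8) and *Nr2f1* (19.4). *Tbx3* (8.95), *Nr2f2* (6.17), *Foxd1* (4.74) and *Tbx5* (2.76 CPM per kb) were lower. *Aldh1a1* ranged from 13.9 to 67.8 CPM per kb over the libraries, so its place relative to *Tbx2*, *Vax2*, *Aldh1a3* and *Nr2f1* was not fixed. The ranges of *Nr2f2* (5.29 to 6.72) and *Foxd1* (4.21 to 5.74 CPM per kb) also overlapped. All other neighbours in this order were separate in every library.

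The dorsal retinaldehyde dehydrogenase *Aldh1a1* (ENSMUSG00000053279.6) lies on chromosome 19 of GRCm38 from 20492715 to 20643465, on the plus strand. It was the member with the widest spread, and the libraries differed within a genotype more than the genotypes did. The RefSeq promoter table of GRCm38.p6 holds windows for 4 of the 9 members, and *Aldh1a1* has a pair of them. The 250 bases before each start site are printed here because *Aldh1a1* varied most and because the T-box members bind a known core motif. They are chr19:20492333-20492582 and chr19:20601718-20601967, both on the plus strand, the latter inside the gene. Capitals mark the T-box core, AGGTGT on one strand and ACACCT on the other.
*Aldh1a1* upstream window: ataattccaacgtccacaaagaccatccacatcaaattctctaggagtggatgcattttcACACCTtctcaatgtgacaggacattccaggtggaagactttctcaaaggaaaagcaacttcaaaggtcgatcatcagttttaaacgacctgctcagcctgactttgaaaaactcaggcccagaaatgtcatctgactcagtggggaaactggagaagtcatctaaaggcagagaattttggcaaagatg
*Aldh1a1* internal window: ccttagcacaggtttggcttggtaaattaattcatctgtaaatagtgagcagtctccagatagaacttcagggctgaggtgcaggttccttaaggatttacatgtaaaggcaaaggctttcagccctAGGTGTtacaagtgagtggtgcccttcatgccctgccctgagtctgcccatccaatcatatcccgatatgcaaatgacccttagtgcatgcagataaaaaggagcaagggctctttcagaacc
Each of these windows holds the T-box core once, beginning 190 and 123 bases before the start site, and the other 4 windows of members (of *Nr2f1*, *Nr2f2* and *Foxd1*) do not hold it. Of 32851 windows of this length in the table, 11.8% hold it on either strand. The nuclear receptor core, AGGTCA on one strand and TGACCT on the other, was in none of the 6 windows of members and in 14.0% of all windows. These matches describe letters only and say nothing of binding.

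*Aldh1a1* was expressed at 243 CPM in WT, at 156, 228 and 335 CPM in Het1 to Het3, and at 68.8, 92.4 and 283 CPM in KO1 to KO3. KO1 and KO2 were lower than every other library, while KO3 was higher than WT, Het1 and Het2. The highest library was 4.87-fold above the lowest. The Het mean was 240 ± 89.9 CPM and the KO mean 148 ± 117 CPM (SD, n = 3 each), for which edgeR gave a log2 fold change of -0.69 ± 0.555 (SE; adjusted p = 0.437). The coefficient of variation was 37.6% in Het and 79.3% in KO. Among the 11321 genes with a mean of at least 5 CPM, 0.848% varied as much in Het and 0.415% as much in KO, and the median gene varied by 3.05% and 4.44%. Without KO3 the log2 fold change was -1.57 (adjusted p = 0.0405, edgeR), and without both KO1 and KO2 it was 0.23 (adjusted p = 0.768, edgeR). The latter fit, which leaves 1 KO library assumed to vary like the others, was chosen after the values were seen.

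The 3 ciliary margin markers, genes of the peripheral rim of the optic cup, put the 7 libraries in the same order as *Aldh1a1*: KO1, KO2, Het1, Het2, WT, KO3 and Het3 from the lowest to the highest. *Wfdc1*, a secreted protein of the rim, was at 2.23 and 2.79 CPM in KO1 and KO2, at 20.4 CPM in KO3, at 10.2, 17.0 and 24.7 CPM in Het1 to Het3 and at 19.9 CPM in WT. *Otx1*, a homeobox gene of the rim, was at 1.25, 2.01 and 15.0 CPM in KO1 to KO3, at 10.6, 12.5 and 17.9 CPM in Het1 to Het3 and at 12.8 CPM in WT. *Msx1*, another homeobox gene of the rim, was at 0.513, 0.631 and 9.71 CPM in KO1 to KO3, at 2.94, 6.51 and 10.9 CPM in Het1 to Het3 and at 7.34 CPM in WT. Thus the lowest of the other 5 libraries was 5.29-fold above the higher of KO1 and KO2 in *Otx1*, 4.66-fold in *Msx1* and 3.65-fold in *Wfdc1*, against 1.69-fold in *Aldh1a1*. None of the 3 markers was called by edgeR or by DESeq2, or at an unadjusted p below 0.05, whereas without KO3 all 3 were called, at log2 fold changes of -2.78 (*Wfdc1*), -3.07 (*Otx1*) and -3.56 (*Msx1*). Of the 11320 other genes at or above 5 CPM, 9 shared this exact order, the 3 markers included. The order was read from *Aldh1a1* in these data and the markers were named after their values were seen, so this count is no test. From KO1 to Het3 in this order the pools held 4, 4, 5, 5, 6, 6 and 6 retinas, so pool size ran alike. The parts of the rim and of pool size in the *Aldh1a1* values were not tested.

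**Figure D2:**
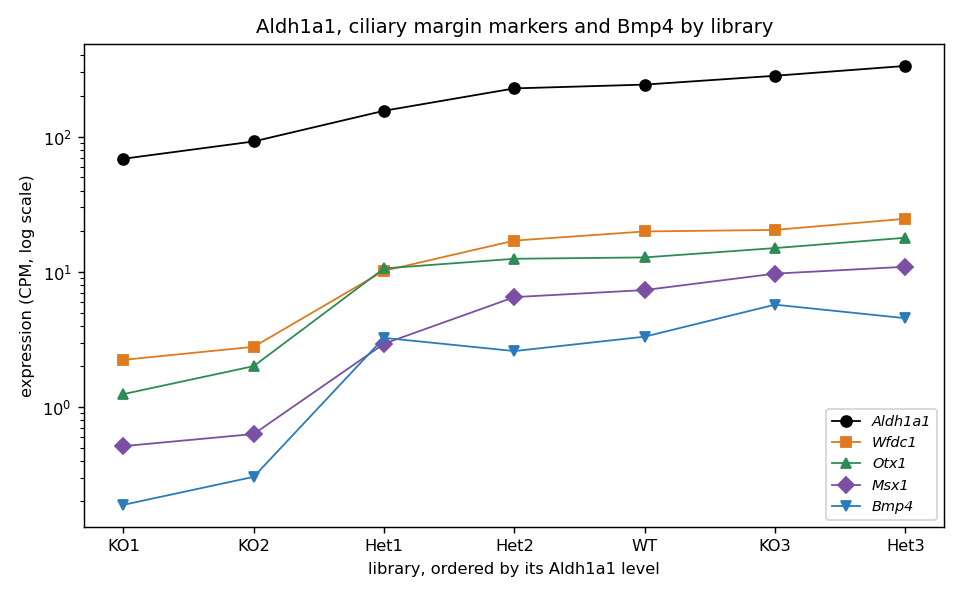
Expression (CPM, log scale) of *Aldh1a1*, of the ciliary margin markers *Wfdc1*, *Otx1* and *Msx1*, and of *Bmp4* in the 7 libraries, ordered on the x axis by *Aldh1a1*. All 5 genes are lowest in KO1 and KO2, and lines join libraries only to guide the eye.

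*Bmp4*, the dorsal signal upstream of the T-box members, was also low in those pools, at 0.189 and 0.304 CPM in KO1 and KO2. It was at 5.72 CPM in KO3, at 3.25, 2.59 and 4.54 CPM in Het1 to Het3 and at 3.32 CPM in WT. Its log2 fold change of -0.74 ± 1.16 (SE; adjusted p = 0.702, edgeR) rested on the same split among the KO libraries. By the root mean square difference between centred log2(CPM + 0.5) values over the 7 libraries, a rule applied to *Aldh1a1* after its values were seen, the 3 genes nearest to it were *Cldn1* (0.134), *Nkd2* (0.199) and *Fbn2* (0.261), where the median gene was at 0.794. *Cldn1*, a tight junction protein, was at 5.46 and 7.63 CPM in KO1 and KO2 and at 17.3 to 32.2 CPM elsewhere. *Aldh1a7*, a near relative of *Aldh1a1* whose counts are uncertain where reads match both, was at 1.15 and 1.44 CPM in KO1 and KO2, at 7.96 CPM in KO3 and at 4.84, 7.75 and 11.2 CPM in Het1 to Het3.

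The ventral enzyme *Aldh1a3* (ENSMUSG00000015134.15; chromosome 7, 66390890 to 66427517, minus strand) was steadier. It was at 161 CPM in WT, at 142, 150 and 155 CPM in Het1 to Het3 and at 124, 126 and 137 CPM in KO1 to KO3. Every KO library was below every Het library, and WT was the highest of the 7. The Het mean of 149 ± 6.68 CPM and the KO mean of 129 ± 7.0 CPM (SD, n = 3 each) gave a log2 fold change of -0.21 ± 0.0513 (SE; adjusted p = 0.0483, edgeR). It was the only member with an adjusted p below 0.05, as 11.1% of all genes had (5.31% lower in KO), and its change was smaller than the limit of 0.26. DESeq2 gave -0.21 as well (adjusted p = 0.00111), and by that tool *Nr2f1* was the other member with an adjusted p below 0.05, as 20.6% of all genes had. The adjusted p from edgeR ranged from 0.0239 without KO3 to 0.15 without Het3 when a library was left out, and the log2 fold change stayed between -0.25 and -0.18. The ratio of *Aldh1a1* to *Aldh1a3* CPM was 1.51 in WT, 1.10, 1.52 and 2.16 in Het1 to Het3, and 0.555, 0.733 and 2.07 in KO1 to KO3, so the dorsal enzyme was the less counted of the pair in KO1 and KO2 alone.

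Among the dorsal T-box factors, *Tbx2* (ENSMUSG00000000093.6; chromosome 11, 85832551 to 85841948, plus strand) was at 183 CPM in WT, at 187, 176 and 183 CPM in Het1 to Het3 and at 206, 195 and 193 CPM in KO1 to KO3. KO lay above Het throughout, by a log2 fold change of 0.12 ± 0.0386 (SE; adjusted p = 0.0911, edgeR). KO1 was the highest and KO3 the lowest of the KO libraries, the opposite of *Aldh1a1*. Of 4 genes that mark amacrine neurons, 3 were called higher in KO, against 4.01% of all genes in that direction. The most abundant, *Tfap2b*, rose in KO from 201 ± 12.8 to 291 ± 19.8 CPM (SD, n = 3 each), and the genotypes differed by a log2 fold change of 0.54 ± 0.0649 (SE; adjusted p = 0.00779, edgeR). *Tfap2a* and *Tfap2c* rose by 0.46 and 0.74 on the same scale. The remaining gene, *Ptf1a*, was not called but lay above Het in every KO library (log2 fold change 0.23, adjusted p = 0.0564, edgeR). The adjusted p of *Tfap2a* was 0.114, 0.1, 0.0544 and 0.0976 without Het2, Het3, KO1 and KO2, and that of *Tfap2c* was 0.0725 and 0.0641 without Het2 and Het3 (edgeR). Without both KO1 and KO2 none of the 3 was called, and *Tfap2b* was at 0.45 (adjusted p = 0.0529, edgeR). The part of amacrine cells in the *Tbx2* values was not tested.

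*Tbx3* (ENSMUSG00000018604.18; chromosome 5, 119670669 to 119684724, plus strand) and *Tbx5* (ENSMUSG00000018263.11; chromosome 5, 119832668 to 119885219, plus strand) are neighbours, 147943 bases apart. *Tbx3* lay between 54.1 and 63.4 CPM in all 7 libraries, with Het at 58.4 ± 3.73 and KO at 59.0 ± 3.80 CPM (SD, n = 3 each). The groups overlapped, and the log2 fold change of 0.016 ± 0.0626 (SE; adjusted p = 0.884, edgeR) turned to -0.036 without Het1 and -0.035 without KO3. *Tbx5*, the factor nearest to the BMP4 signal, was at 14.9 CPM in WT, at 12.1, 14.6 and 14.6 CPM in Het1 to Het3 and at 9.27, 11 and 14.0 CPM in KO1 to KO3. As in *Aldh1a1*, KO1 and KO2 were the lowest libraries and KO3 lay within the Het range. The log2 fold change of -0.26 ± 0.159 (SE; adjusted p = 0.310, edgeR) was -0.43 without KO3 and 0.024 without both KO1 and KO2.

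*Vax2* (ENSMUSG00000034777.2; chromosome 6, 83711264 to 83738313, plus strand), the ventral homeobox factor, varied least of the 9, from 48.0 to 54.7 CPM, a 1.14-fold range. Het was at 53.2 ± 0.754 and KO at 50.3 ± 3.0 CPM (SD, n = 3 each), with overlap. KO against Het gave a log2 fold change of -0.078 ± 0.0449 (SE; adjusted p = 0.289, edgeR). It was negative under each of the 16 alternatives, from -0.16 to -0.041, and called in none. Alternatives that change only the limits keep the main model, so their sign was fixed. An annotated antisense gene, *Vax2os*, was at 3.98 to 4.88 CPM.

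*Foxd1* (ENSMUSG00000078302.4; chromosome 13, 98354242 to 98359305, plus strand), the temporal forkhead factor, was at 22.7 CPM in WT, at 23.5, 22.3 and 25.9 CPM in Het1 to Het3 and at 29.1, 21.3 and 23.2 CPM in KO1 to KO3. KO1 was the highest and KO2 the lowest library of all 7. For *Foxd1* the log2 fold change of 0.036 ± 0.12 (SE; adjusted p = 0.864, edgeR) was -0.10 without KO1.

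The nuclear receptor gene *Nr2f1* (ENSMUSG00000069171.13; chromosome 13, 78188973 to 78199757, minus strand) was at 110 CPM in WT, at 95.5, 109 and 110 CPM in Het1 to Het3 and at 84.1, 90.6 and 91.8 CPM in KO1 to KO3. All KO libraries were below all Het libraries. The Het and KO means were 105 ± 8.09 and 88.8 ± 4.12 CPM (SD, n = 3 each). The log2 fold change between them was -0.24 ± 0.0634 (SE; adjusted p = 0.0590, edgeR). With DESeq2 the adjusted p was 0.00207 at the same change of -0.24, which is below the fold-change limit. Without Het1 the change was -0.30 (adjusted p = 0.0240, edgeR), and this was the only alternative in which *Nr2f1* was called. The antisense gene *A830082K12Rik*, which overlaps *Nr2f1*, was at 17.1 to 21.6 CPM and had a log2 fold change of -0.26 (adjusted p = 0.0349, edgeR). The strand setting of the counting is not given in the sources used here, so the reads of this pair cannot be told apart.

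Its relative *Nr2f2* (ENSMUSG00000030551.14; chromosome 7, 70351944 to 70366735, minus strand) was at 58.0 CPM in WT, at 52.3, 54.0 and 52.8 CPM in Het1 to Het3 and at 45.7, 52.0 and 57.8 CPM in KO1 to KO3. The KO libraries reached both below and above the Het libraries, with KO1 and KO2 the lowest of the 7. KO against Het gave -0.033 ± 0.0799 on the log2 scale (SE; adjusted p = 0.808, edgeR), which was 0.051 without KO1. The ratio of *Nr2f2* to *Nr2f1* CPM was 0.479 to 0.548 in Het, 0.543 to 0.630 in KO and 0.528 in WT, so Het and KO overlapped narrowly.

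**Figure D3:**
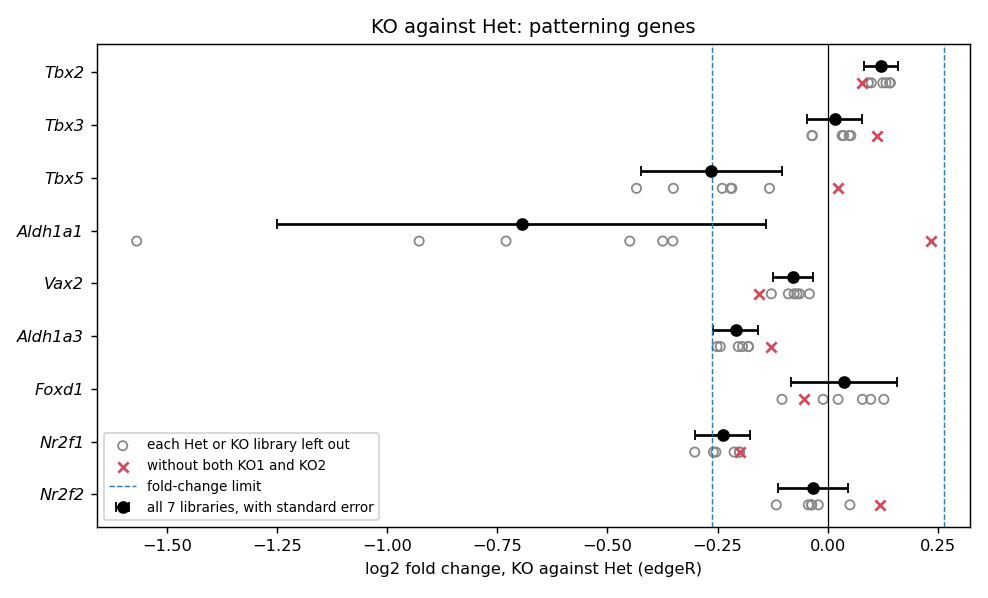
Log2 fold change of each patterning gene between KO and Het (x axis), with the estimate from all 7 libraries and its standard error in black, the fits that leave out each Het or KO library as open circles, and the fit without both KO1 and KO2 as a cross. Dashed lines mark the limit of 0.26 on either side of 0, and *Aldh1a1* moves between -1.57 and 0.23 where *Vax2* stays between -0.16 and -0.041.

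The balance of regions was described per library as the mean log2(CPM + 0.5) of the dorsal members *Tbx2*, *Tbx3*, *Tbx5* and *Aldh1a1* minus that of the ventral members *Vax2* and *Aldh1a3*. It was -0.22 in WT, -0.39, -0.20 and -0.073 in Het1 to Het3, and -0.57, -0.49 and 0.049 in KO1 to KO3. KO1 and KO2 were thus the least dorsal libraries on this scale and KO3 the most dorsal. The KO minus Het difference was -0.12, smaller than the SD of 0.337 over the KO libraries. The members did not share this order. With the transcription factors alone (the 3 *Tbx* genes minus *Vax2*) the libraries spanned 0.33 on the log2 scale, Het1 was the lowest at -0.11, and KO1 and KO2 were at -0.038 and -0.098. For the enzymes alone the span was 1.95, from -0.85 in KO1 to 1.11 in Het3.

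**Figure D4:**
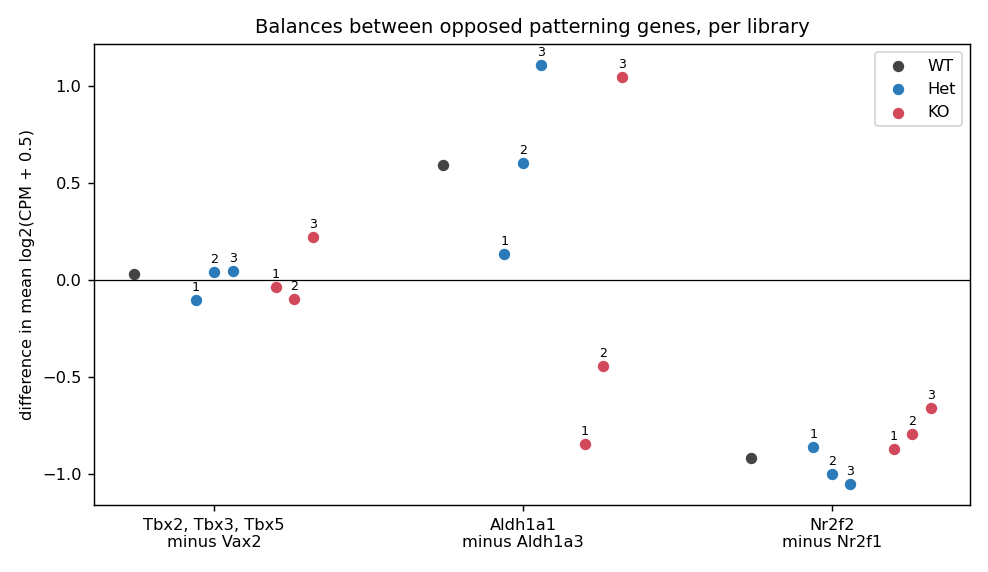
Differences in mean log2(CPM + 0.5) (y axis) for 3 pairs of opposed patterning genes or groups (x axis) in each library, coloured by genotype and numbered by library. The *Aldh1a1* minus *Aldh1a3* values span 1.95 and put KO1 and KO2 below 0, whereas the *Tbx* minus *Vax2* values span 0.33.

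Over the 9 members, KO1 was the lowest and KO3 the highest KO library in 6 each. KO1 and KO2 were both below the other 5 libraries in 5 members (*Tbx5*, *Aldh1a1*, *Aldh1a3*, *Nr2f1* and *Nr2f2*), as in 12.2% of all genes tested, a pattern chosen after the values were seen. Het1, the library with muscle, mesenchyme and pigment genes, was the lowest Het library in 6 members. The WT library, which has no replicate, was the highest of all 7 in 4 members. No share over all genes was worked out for these counts of highest and lowest libraries. They cannot be called particular to the members. The Het mean lay between 91.5% (*Nr2f2*) and 105% (*Foxd1*) of the WT value, whereas the KO mean lay between 60.8% (*Aldh1a1*) and 108% (*Foxd1*) of it. The parts of pool size and of the margin, vessel, muscle and pigment genes in these orders were not tested.

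Other genes of the same axes were read from lists. Of 4 further dorsal genes, *Efnb2*, a ligand of Eph receptors, was lower in KO, and the other 3 (*Bmp4*, *Gdf6* and *Efnb1*) were not called, against 3.21% of all genes called lower. All 4 were lower in KO1 and KO2 than in the other 5 libraries, against 12.2% of all genes tested. So were 2 of the 8 ventral and optic stalk genes, and this pattern was chosen after the values were seen. In *Efnb2* and *Gdf6* KO3 was below every Het library as well. *Efnb2*, the most abundant of the 4 dorsal genes, went from 257 ± 22.6 to 201 ± 12.9 CPM (SD, n = 3 each). The log2 fold change between them was -0.36 ± 0.0751 (SE; adjusted p = 0.0324, edgeR). It was no longer called without Het2, Het3, KO1 or KO2, when the adjusted p from edgeR was 0.108, 0.104, 0.0741 and 0.103. Of 8 ventral and optic stalk genes, 0 were called by edgeR or DESeq2, against 7.22% and 11.9% of all genes. These 8 are too few to tell 0 from such shares. At an unadjusted p below 0.05 there were 3, against 29.7% of all genes. The most abundant of the 8, the ventral receptor *Ephb2*, was at 443 CPM in Het and 385 CPM in KO on average. The log2 fold change between them was -0.20 ± 0.0524 (SE; adjusted p = 0.0554, edgeR). Another Eph receptor of the 8, *Ephb3*, went the other way without overlap, at 0.22 (adjusted p = 0.0526, edgeR). Fold changes were below 0 on the log2 scale in 6 of the 8 and above 0 in 2.

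On the nasotemporal axis, 0 of 3 nasal genes were called by edgeR or DESeq2, against 7.22% and 11.9% of all genes. At an unadjusted p below 0.05 there were 0 of the 3, against 29.7% of all genes. A list of 3 genes is too short to tell 0 from these shares. The nasal homeobox gene *Hmx1*, the most abundant, was at 121 CPM on average in both groups. Of the 2 temporal receptors, edgeR called 0, against 7.22% of all genes, a share that 2 genes are too few to tell from 0. *Epha5*, the more abundant, was at 213 CPM in Het and 211 CPM in KO on average. *Epha6* was at 9.30 ± 0.463 CPM in Het and 6.25 ± 1.47 CPM in KO (SD, n = 3 each) without overlap, with a log2 fold change of -0.57 (adjusted p = 0.0795, edgeR), and DESeq2 called it (adjusted p = 0.00258). Without KO1 edgeR called it too, at -0.39.

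Of 16 further genes of the retinoic acid pathway, 2 were lower in KO, 0 were higher and 14 were not called, where 3.21% of all genes were called lower and 4.01% higher. *Crabp2*, a cytoplasmic retinoic acid carrier, fell from 110 ± 6.58 to 83.3 ± 4.37 CPM (SD, n = 3 each), and the genotypes differed by a log2 fold change of -0.40 ± 0.0566 (SE; adjusted p = 0.0120, edgeR). It was not called without Het2 or Het3, at an adjusted p of 0.0510 and 0.0523 (edgeR). *Stra6*, the cellular receptor for retinol-binding protein, fell from 29.3 ± 10.3 to 10.9 ± 3.55 CPM (SD, n = 3 each), and the genotypes differed by a log2 fold change of -1.43 ± 0.311 (SE; adjusted p = 0.0349, edgeR). It was highest in Het1, at 40.5 CPM, the library with the most pigment genes. Without Het1 its change was -1.12 (adjusted p = 0.0549, edgeR), it was called without KO3 but in none of the other fits that left out 1 library, and the part of pigment cells in it was not tested. *Rxra*, a retinoid X receptor and the most abundant of the list, was at 102 CPM on average in both groups (log2 fold change 0.0051, adjusted p = 0.959, edgeR). *Cyp26c1*, a retinoic acid degrading enzyme of the band between the dorsal and ventral domains, was at 5.82 ± 0.761 CPM in Het and 7.65 ± 0.895 CPM in KO (SD, n = 3 each) without overlap (log2 fold change 0.39, adjusted p = 0.101, edgeR). It was not called by edgeR but was called by DESeq2 (adjusted p = 0.0278).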

How the data were processed

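Per the labels and the methods, 7 stranded mRNA libraries were made from pooled E16 retinas (36 in all). The authors ran STAR inside rMATS-turbo to align reads to GRCm38 (mm10), then featureCounts, and deposited raw counts per gene. Strand and multi-mapping settings are not given in the sources used here, so reads of antisense genes and close relatives may be shared. The labels name TRIzol and the methods a column kit for the extraction.

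The fit took in all 7 libraries (edgeR 4.0.16, R 4.3.3; filterByExpr, 20019 genes, TMM, glmQLFit and glmQLFTest, a mean per genotype), comparing KO with Het. The standard error is the log2 fold change over the square root of F, and the Benjamini-Hochberg adjustment ran over all genes tested. An exact permutation test of 1 gene, 3 against 3, cannot go below 0.1. Adjusted p-values measure only the spread between these pools. WT was in the fit, unreplicated, and its contrast was not tested. Exon lengths come from GENCODE M21, and the counting used M10. The scripts were tested on simulated data. Replicates differed by 13.0 to 49.4 times the counting variance, so none was a copy.

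The members and lists were chosen with earlier results of these data known. Every member was named, and from each list of further genes the called and the most abundant ones. Some genes of these lists are not reported here. *Bmp4*, *Epha6*, *Cyp26c1*, *Ptf1a*, *Ephb3*, the ciliary margin markers and the genes nearest to *Aldh1a1* were named after their values were seen. Alternatives were DESeq2 1.42.0, other normalizations and filters, the Het and KO libraries alone, a replicate block, other limits and each library left out.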

Additional observations from a re-analysis of the deposited data

How the results depend on the processing

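The number of differentially expressed genes, 1445 (802 higher in KO), became 2221 at an adjusted p below 0.05 alone, 217 with glmTreat, 386 (without Het2) to 1674 (without KO3) when each library was left out, and 659 without both KO1 and KO2. The number of patterning genes called, 0, became 1 at an adjusted p alone (*Aldh1a3*) and ran from 0 to 1 when each library was left out. The dorsoventral balance difference of -0.12 ran from -0.31 (without KO3) to 0.00097 (without KO1) when each library was left out, was -0.70 with the enzymes alone, 0.035 with the transcription factors alone and 0.27 without both KO1 and KO2. Of the 144 values of members under 16 alternatives, 132 kept direction and call. Direction was fixed under an adjusted p alone and glmTreat, which keep the main model. Signs turned when libraries were left out in *Foxd1* (-0.10 to 0.13), *Tbx3* (-0.036 to 0.053), *Nr2f2* (-0.12 to 0.051), *Hmx1* (-0.043 to 0.049), *Rxra* (-0.040 to 0.051) and *Epha5* (-0.036 to 0.0043). Without both KO1 and KO2 they turned to 0.024 in *Tbx5*, 0.23 in *Aldh1a1*, -0.053 in *Foxd1*, 0.12 in *Nr2f2*, 0.72 in *Bmp4*, 0.13 in *Otx1*, 0.23 in *Wfdc1*, 0.51 in *Msx1*, 0.0043 in *Epha5* and -0.092 in *Rxra*. Without KO3, *Bmp4*, *Otx1*, *Wfdc1* and *Msx1* were called, at -3.81, -3.07, -2.78 and -3.56. The cause was not tested. Same-numbered Het and KO libraries had deviations correlated at -0.12, 0.26 and 0.019, and the other pairs ran from -0.35 to 0.22. These values do not settle whether replicate numbers pair the libraries. With the number as a replicate block over Het and KO libraries, 1268 genes and 0 patterning genes were called, and *Aldh1a1* was at -0.91 (adjusted p = 0.0731, edgeR). Of the further genes named, the block ended the call of *Stra6* and made *Cyp26c1* called. With glmTreat, and likewise without both KO1 and KO2, each of *Efnb2*, *Stra6*, *Crabp2*, *Tfap2a*, *Tfap2b* and *Tfap2c* lost its call, at adjusted p-values of 0.0552 to 0.436 and of 0.0503 to 0.235 (edgeR), and *Ephb2* was called without both (-0.31, adjusted p = 0.0442, edgeR). On average over genes, counting error was small beside the spread between pools. This need not hold for members that were steady in Het. *Vax2* and *Nr2f2* varied by 1.42% and 1.61% in Het, but by 5.96% and 11.8% in KO.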
